A study of Homo sapiens with 4 samples.

Results

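The 39 genes described here act in DNA replication and at the G1/S step of the cell cycle. They were picked by symbol, with earlier results of these data known, out of 35979 symbols in the tables. Their transcripts were measured in NCI-H1048 cells, a small cell lung cancer line of the tuft cell-like kind, whose growth depends on the transcription factor POU2F3. COLCA2 encodes a coactivator that POU2F3 binds. Of 4 libraries of poly(A) RNA, 2 carried the label COLCA2 knockout, each with its own guide RNA (called guide 1 and guide 2), 1 was labelled POU2F3 knockout (the POU2F3 library), and 1 with a non-targeting guide was labelled WT (the control). No treatment is listed for any of them. Delivery of guides and nuclease, time in culture, and whether the cells were clones or pools are not given in the sources used here.

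Replication is prepared in G1, when the origin recognition complex, CDC6 and CDT1 load the MCM2-7 helicase ring onto DNA. CDC45 and the GINS complex then turn the ring into the active helicase, and the polymerases, the PCNA clamp and the RFC clamp loader copy both strands. Many of these genes are transcribed by E2F factors late in G1, after cyclin E and its kinase have acted on RB1, and their transcripts are high in cycling cells. In bulk RNA, fewer cells in S phase and less transcript per cell cannot be told apart.

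The letters that E2F binds were looked up in the promoters. RefSeq windows (GRCh38.p14, 250 bases before to 50 after the annotated start) were matched for 34 of the 39 genes, and MCM4, MCM5, GINS4, DSCC1 and CCNE2 had none. TTTCCCGC, TTTCGCGC, TTTGCCGC or TTTGGCGC, read on both strands, stood in at least 1 window of 19 of the 34 genes (55.9%), against 6.36% of the 11171 genes past the expression minimum that had a window and 3.31% of all 35116 windows. CCAAT on either strand was found for 19 of 34 (55.9%), against 43.2% of the 11171 and 34.6% of windows. TTTGAA, the CHR element of mitotic genes, was found for 1 of 34 (RRM1), against 14.0% and 15.2%. The octamer ATGCAAAT, which POU factors of the OCT class bind, was found for 0 of 34, against 1.95% and 1.77%. A match is a description of letters, and its absence from a window says nothing of the factor.

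The 250 bases before the start are shown for 4 members whose stretch overlapped no annotated exon, so that promoters with 1 E2F match, with paired matches and with none can be read side by side. They run 5′ to 3′ on the strand of the gene, with E2F letters and CCAAT boxes in capitals. E2F2 (chr1:23531234-23531483, minus strand) encodes an E2F activator and carried 1 E2F match. MCM6 (chr2:135876444-135876693, minus strand), a subunit of the ring, carried 4 E2F matches in 2 overlapping pairs and 2 CCAAT boxes. POLA1 (chrX:24693668-24693917, plus strand), the catalytic subunit of polymerase alpha, carried 1 E2F match and 1 CCAAT box. RRM1 (chr11:4094435-4094684, plus strand), the large subunit of ribonucleotide reductase, carried 1 CCAAT box and no E2F match, and its CHR letters are left in lower case.
E2F2: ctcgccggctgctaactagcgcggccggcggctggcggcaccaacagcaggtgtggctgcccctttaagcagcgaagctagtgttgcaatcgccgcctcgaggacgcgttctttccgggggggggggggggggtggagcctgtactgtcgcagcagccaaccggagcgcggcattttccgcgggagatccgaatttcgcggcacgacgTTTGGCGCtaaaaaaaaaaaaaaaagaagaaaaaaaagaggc
MCM6: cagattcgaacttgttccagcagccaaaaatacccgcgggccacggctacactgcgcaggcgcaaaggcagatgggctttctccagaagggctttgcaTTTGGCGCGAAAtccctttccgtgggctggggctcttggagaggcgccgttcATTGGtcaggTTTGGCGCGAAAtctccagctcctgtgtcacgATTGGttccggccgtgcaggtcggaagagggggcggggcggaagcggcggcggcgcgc
POLA1: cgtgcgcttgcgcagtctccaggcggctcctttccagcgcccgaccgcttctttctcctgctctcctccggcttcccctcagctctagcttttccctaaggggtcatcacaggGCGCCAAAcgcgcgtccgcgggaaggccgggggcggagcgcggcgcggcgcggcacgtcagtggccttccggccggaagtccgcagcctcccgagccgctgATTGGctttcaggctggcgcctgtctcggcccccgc
RRM1: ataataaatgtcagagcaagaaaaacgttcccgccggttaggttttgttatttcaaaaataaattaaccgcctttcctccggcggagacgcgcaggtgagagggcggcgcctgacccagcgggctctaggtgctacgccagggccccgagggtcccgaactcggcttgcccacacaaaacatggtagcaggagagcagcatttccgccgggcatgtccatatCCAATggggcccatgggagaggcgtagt
E2F2, with 1 match, was 22.2% to 27.3% below the control in the 3 knockout libraries, and POLA1, also with 1, was 13.0% to 26.0% below it. MCM6, with 4 matches, lay within 6.70% of the control, and RRM1, with none, was 1.67% to 13.2% below it. Over the 19 members with E2F letters the median log2 ratio to the control was -0.12 with guide 1, -0.23 with guide 2 and -0.20 in the POU2F3 library. Over the 15 without them it was -0.20, -0.27 and -0.33. These medians are a description of 34 genes.

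All 39 genes had 1 row each in the tables and passed the expression minimum, a mean normalized count of 20 over the 4 libraries. Libraries held 21587741 to 29632382 reads assigned to genes, and a member had 311 to 12105 reads in a library. In the control the members' normalized counts, which are reads divided by 1 factor per library, ran from 363 for POLE2 to 11559 for MCM7. Their median was 1611, against 677 for all 14940 genes tested. These counts are not corrected for transcript length, so they show how well genes were counted, not how highly they were expressed. The targeted genes were lower in each knockout library: POU2F3 stood at 14602 in the control, 3677 and 2351 with guides 1 and 2, and 1449 in the POU2F3 library, and COLCA2 at 5585 in the control, 3119 and 3541 with guides 1 and 2, and 1393 in the POU2F3 library. Of 9 tuft markers 6 passed the minimum, and the list summed to 40696 in the control, 10463 to 14162 with the guides and 9683 in the POU2F3 library, while TRPM5, CHAT and PTGS1 had 2 to 14 reads in the control. Neuroendocrine markers (5) summed to 198 in the control and 90.6 to 94.8 elsewhere, fibroblast markers (4) to 1306 and 1169 to 1354, and leukocyte markers (3) to 88.8 and 148 to 218, with CD3E at 0 reads throughout. Single genes carried the last 2 sums. CD68 was at 72.6 in the control and 139 to 209 elsewhere, while PTPRC was at 16.2 and 8.29 to 9.41. COL1A1 was at 1136 in the control. The part of these lists in the results was not tested.

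Summed over the group, the replication genes were slightly lower in each knockout library. Their reads made up 0.440% of all reads in the control (95% exact interval 0.437% to 0.442%), 0.377% with guide 1 (0.375% to 0.379%), 0.378% with guide 2 (0.375% to 0.380%) and 0.378% in the POU2F3 library (0.376% to 0.380%). These intervals cover counting error only. The 3 knockout libraries lay close together, all below the control. On the deposited scale the summed normalized count of the 39 genes was 9.75% below the control with guide 1, 10.3% with guide 2 and 12.0% in the POU2F3 library.

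The median log2 ratio of the members, taken on normalized counts plus 1, was -0.14 with guide 1, -0.24 with guide 2 and -0.25 in the POU2F3 library. Over all genes tested the medians were -0.0052, -0.0017 and -0.0037. For COLCA2 the ratio averaged over guides had a median of -0.21 ± 0.068 (SD of the medians, n = 2 guides), and -0.14 without guide 2. Below the control in all 3 knockout libraries were 31 of 39 genes, against 35.3% of all genes tested, and above it in all 3 were 3 (MCM4, POLE2 and TK1), against 34.4%. After scaling to equal library totals the counts were 33, against 41.9% of all genes, and 1 (TK1), against 29.1%. No member was 2-fold from the control in any knockout library, which 14.4% of all genes were. At least 1.5-fold lower in any of them were 3 (PRIM1, POLD1 and DSCC1), against 15.2%, and 0 were 1.5-fold higher, against 17.1%. All 3 ratios share the single control, and neither it nor the POU2F3 library had a replicate, so a difference between those libraries has no replicate check.

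**Figure D1:**
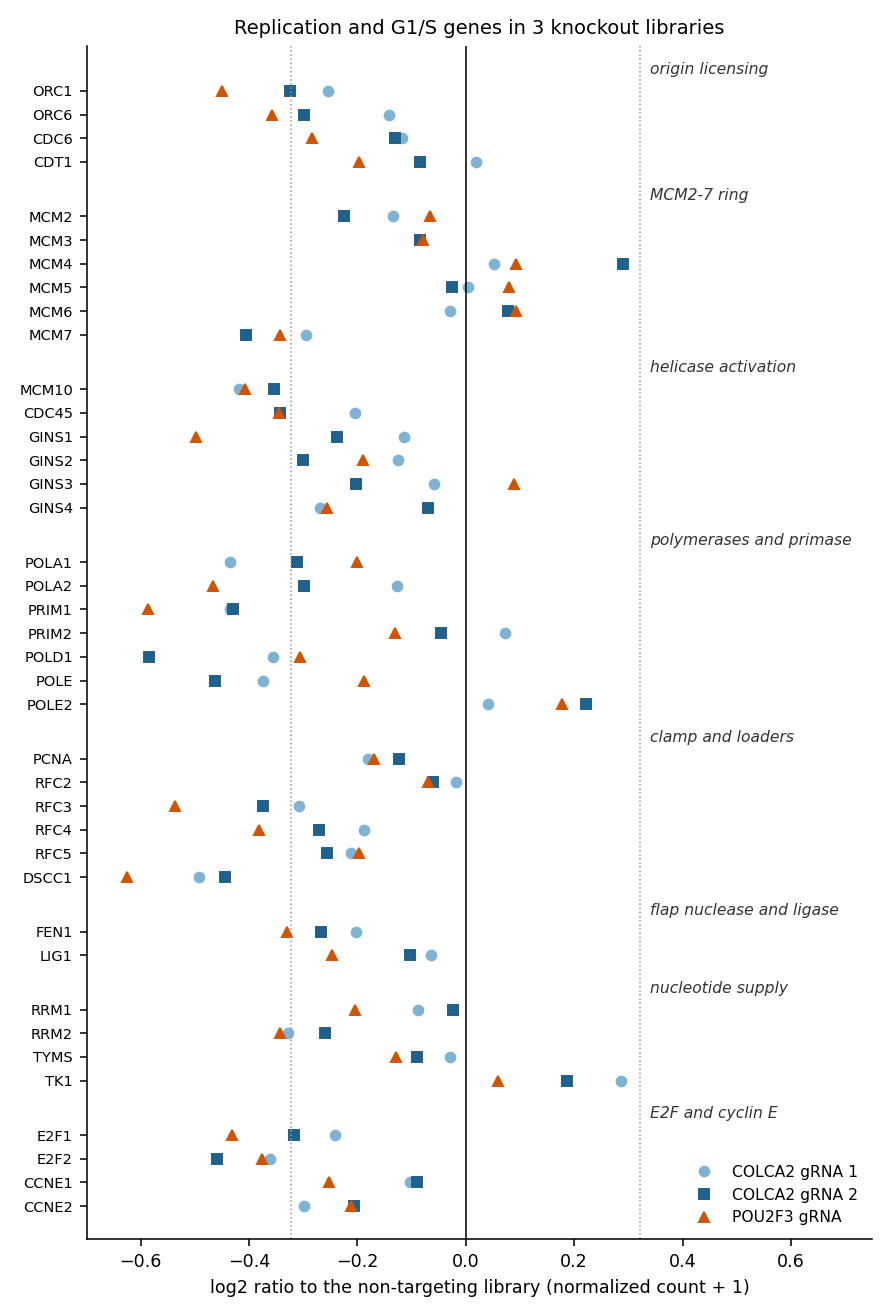
Log2 ratio to the non-targeting control (x axis, normalized count + 1) of each of the 39 genes, grouped by role, with 1 symbol per knockout library and dotted lines at -0.32 and 0.32 (20% lower and 25% higher). In all 3 libraries 31 genes sit left of 0, against 35.3% of all genes tested, and MCM4, POLE2 and TK1 sit right of it, against 34.4%. After scaling to equal library totals only TK1 stays right of 0 in all 3.

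**Figure D2:**
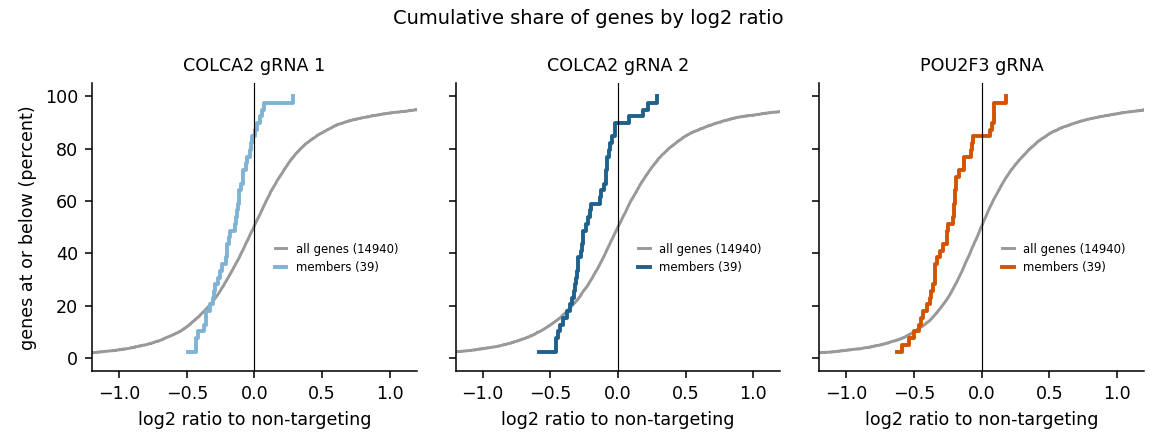
Cumulative share of genes (y axis, percent) by log2 ratio to the non-targeting control (x axis) for the 39 members and for all 14940 genes tested, 1 panel per knockout library. The members' curve crosses 50% at -0.14, -0.24 and -0.25, left of all genes. No member lies beyond a 2-fold difference, which 14.4% of all genes reach in any knockout library.

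To describe shifts of this size, genes with a log2 ratio of at least 0.32 in either direction were counted, which is 20% lower or 25% higher than the control. In the POU2F3 library 15 of 39 members were at least 20% lower, against 18.0% of all genes tested, and 0 were at least 25% higher, against 22.0%. With both guides 6 were lower (MCM10, PRIM1, POLD1, POLE, DSCC1 and E2F2), or 15.4% of the members against 14.5% of all genes, and 0 higher, against 17.1%. That share of lower genes was near the background. After scaling to equal totals, which lowers all ratios, 11 members were lower, against 18.5% of all genes under that scaling. Guide 1 alone gave 8 lower members, or 20.5% against 20.8% of all genes, and 0 higher, against 21.1%. Guide 2 alone gave 10, or 25.6% against 21.1%, and 0 higher, against 22.6%. In all 3 libraries 4 members were at least 20% lower (MCM10, PRIM1, DSCC1 and E2F2). That was 10.3% of the members and 10.3% of all genes, so the share was that of the background. In all 3 libraries 0 members were 25% higher, against 14.1%.

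A count test was also run on the recovered reads, edgeR's quasi-likelihood test with Benjamini-Hochberg adjustment over all 14940 genes at 0.05. Its spread comes from the COLCA2 pair and the control was 1 library, so for COLCA2 and for POU2F3 it compares libraries, not conditions. Its share of members called lower for COLCA2 was near that of all genes. For COLCA2 it called 3 members lower (MCM7, POLD1 and POLE), against 7.51% of all genes, and 0 higher, against 11.4%. In the POU2F3 library it called 0 members lower, against 3.98%, and 0 higher, against 8.45%. At an unadjusted p under 0.05 it gave 12 lower members for COLCA2, against 14.8%, and 1 higher (TK1), against 17.9%, and for POU2F3 15 lower, against 11.0%, and 0 higher, against 15.7%. DESeq2 at an adjusted p under 0.05 called the same 3 genes lower for COLCA2, against 4.18% of all genes, and 0 higher, against 8.33%. For POU2F3 it called 0 lower, against 2.69%, and 0 higher, against 6.15%.

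The origin licensing genes ORC1, ORC6, CDC6 and CDT1 were lowest in the POU2F3 library, which lay below both guides for 38.9% of all genes tested. Their log2 differences from the mean of the guides were small, -0.14 to -0.16. ORC1, the ATPase subunit of the origin recognition complex, had normalized counts of 784 in the control, 657 and 626 with guides 1 and 2, and 573 in the POU2F3 library. The control was highest, and the POU2F3 library lay 26.9% below it. Log2 ratios for ORC1 were -0.29 ± 0.050 for COLCA2 (SD, n = 2 guides) and -0.45 for POU2F3, not called by edgeR's test (adjusted p = 0.17 and 0.11). In what follows, 3 log2 ratios are in the order guide 1, guide 2 and POU2F3. ORC6, the smallest subunit of that complex, had log2 ratios of -0.14, -0.30 and -0.36, and CDC6, which joins it at the origin, -0.12, -0.13 and -0.28. CDT1, which brings the ring to the origin, had 0.019, -0.084 and -0.20, so guide 1 lay just above the control.

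Among the 6 subunits of the MCM2-7 ring, MCM7 had the lowest ratios. Its normalized counts were 11559 in the control, 9427 and 8722 with guides 1 and 2, and 9108 in the POU2F3 library. The knockout libraries lay 18.4%, 24.6% and 21.2% below the control, which was well above all of them. For COLCA2 the mean log2 ratio of MCM7 to the single control library was -0.35 ± 0.079 (SD, n = 2 guides, edgeR adjusted p = 0.035). For POU2F3 the ratio was -0.34 (edgeR adjusted p = 0.085). Exons of MCM7 share 392 bp with exons of AP4M1 on the other strand, 8.94% of its exonic bases, and AP4M1 had log2 ratios of 0.31, 0.54 and 0.25.

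The other 5 subunits of the ring lay nearer to the control, none of them 20% lower in any library. MCM2 had log2 ratios of -0.13, -0.23 and -0.065, and MCM3 had -0.084, -0.084 and -0.079. For MCM5 the ratios were 0.0035, -0.025 and 0.079, and for MCM6 -0.030, 0.077 and 0.093, on both sides of 0. MCM4 was above the control with 0.053, 0.29 and 0.093 and highest with guide 2, a direction not kept in all 3 libraries after scaling to equal totals. The median over the 6 subunits was -0.057 with guide 1, -0.054 with guide 2 and 0.0068 in the POU2F3 library.

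Of the 6 genes that activate the loaded helicase, 5 were below the control in all 3 knockout libraries, against 35.3% of all genes, and 1 (MCM10) was at least 20% lower in all 3, against 10.3%. edgeR's test called 0 of the 6 in either comparison. Of all genes it called 7.51% lower and 11.4% higher for COLCA2, and 3.98% lower and 8.45% higher for POU2F3. With only 6 genes, 0 calls lies near these shares. MCM10, which helps to start the active helicase, had normalized counts of 1237 in the control, 925 and 967 with guides 1 and 2, and 933 in the POU2F3 library. The knockout values lay in a narrow band, 21.8% to 25.2% below the control. Its log2 ratio was -0.39 ± 0.045 for COLCA2 (SD, n = 2 guides, edgeR adjusted p = 0.056) and -0.41 for POU2F3 (edgeR adjusted p = 0.10). CDC45, the cofactor that travels with the ring, had ratios of -0.20, -0.34 and -0.34.

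The 4 GINS subunits form 1 complex, and their transcripts were ordered differently over the libraries. GINS1 had normalized counts of 1164 in the control, 1075 and 987 with guides 1 and 2, and 824 in the POU2F3 library, lowest for POU2F3. The log2 difference of the POU2F3 library from the mean of the guides was -0.32 for GINS1, the largest among the members, with an SD of 0.087 between the guides (n = 2). GINS2 had log2 ratios of -0.12, -0.30 and -0.19, lowest with guide 2. GINS4 had -0.27, -0.070 and -0.26, with guide 2 nearest to the control. GINS3 had -0.059, -0.20 and 0.090, with the POU2F3 library above the control.

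PRIM1, the catalytic subunit of the primase that makes RNA primers, had normalized counts of 610.2 in the control, 451 and 453 with guides 1 and 2, and 406 in the POU2F3 library. The guides gave nearly the same value, and the POU2F3 library lay below both, 33.4% under the control. Log2 ratios of PRIM1 were -0.43 ± 0.0040 for COLCA2 (SD, n = 2 guides, edgeR adjusted p = 0.079) and -0.59 for POU2F3 (edgeR adjusted p = 0.070). PRIM2, the regulatory primase subunit, had ratios of 0.072, -0.046 and -0.13. The polymerase alpha subunits that work with primase went in opposite orders: POLA1 had -0.43, -0.31 and -0.20 and POLA2 had -0.13, -0.30 and -0.47.

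POLD1 and POLE are the catalytic subunits of polymerases delta and epsilon, which extend the lagging and the leading strand. Both were lower with each guide than in the single control library. POLD1 had normalized counts of 3217 in the control, 2514 and 2144 with guides 1 and 2, and 2603 in the POU2F3 library. Its mean log2 ratio for COLCA2 was -0.47 ± 0.16 (SD, n = 2 guides, edgeR adjusted p = 0.037), with guide 2 the lower. POLE had normalized counts of 4286 in the control, 3307 and 3111 with guides 1 and 2, and 3761 in the POU2F3 library. Here the guides were close, with a mean log2 ratio of -0.42 ± 0.063 (SD, n = 2 guides, edgeR adjusted p = 0.022). In the POU2F3 library both genes lay between the guides and the control, at log2 ratios of -0.31 for POLD1 (edgeR adjusted p = 0.23) and -0.19 for POLE (edgeR adjusted p = 0.35). POLE2, the second subunit of polymerase epsilon, was above the control with 0.041, 0.22 and 0.18, though not in all 3 libraries after scaling to equal totals. The DESeq2 adjusted p for COLCA2 was 0.029 for POLD1, 0.017 for POLE and 0.013 for MCM7.

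The clamp PCNA and its loaders were below the control in all 3 knockout libraries for 6 of 6 genes, against 35.3% of all genes, and 1 of the 6 (DSCC1) was at least 20% lower in all 3, against 10.3%. DSCC1, part of the alternative clamp loader that serves sister chromatid cohesion, had normalized counts of 625 in the control, 444 and 459 with guides 1 and 2, and 405 in the POU2F3 library. The 3 knockout values lay 26.6% to 35.2% below the control, and the POU2F3 ratio of 0.648 (95% counting interval 0.575 to 0.730) was the lowest of the 39 genes. DSCC1 had log2 ratios of -0.47 ± 0.034 for COLCA2 (SD, n = 2 guides, edgeR adjusted p = 0.063) and -0.63 for POU2F3 (edgeR adjusted p = 0.058). PCNA itself, which holds the polymerases on DNA, had normalized counts of 5495 in the control, 4851 and 5044 with guides 1 and 2, and 4885 in the POU2F3 library, at most 11.7% below the control.

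RFC2 to RFC5 are the small subunits of the clamp loaders. RFC3 was the lowest, with log2 ratios of -0.31, -0.37 and -0.54 and the smallest edgeR adjusted p of the members for POU2F3, 0.052. RFC4 had -0.19, -0.27 and -0.38, and RFC5 had -0.21, -0.26 and -0.20. RFC2 stayed within 4.76% of the control in all 3 libraries.

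FEN1 trims the flaps of Okazaki fragments and LIG1 seals them. FEN1 had normalized counts of 4683 in the control, 4069 and 3892 with guides 1 and 2, and 3723 in the POU2F3 library, with the control highest. Its log2 ratios were -0.20, -0.27 and -0.33, and those of LIG1 were -0.064, -0.10 and -0.25, the POU2F3 library being lowest for both. Of all genes tested, 38.9% lay below both guides in that library.

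The genes of nucleotide supply differed among themselves. RRM2, the small subunit of ribonucleotide reductase, whose level follows S phase, had normalized counts of 5874 in the control, 4679.9 and 4906 with guides 1 and 2, and 4632 in the POU2F3 library. It was 16.5% to 21.1% below the control. Its partner RRM1 had log2 ratios of -0.088, -0.024 and -0.20, and TYMS, thymidylate synthase, had -0.029, -0.090 and -0.13. TK1, the thymidine kinase of the salvage pathway, was at 2433 in the control, 2966 and 2768 with guides 1 and 2, and 2536 in the POU2F3 library. This was the member above the control in all 3 libraries under the deposited and the 3 other scalings. Its mean log2 ratio for COLCA2 was 0.24 ± 0.070 (SD, n = 2 guides, edgeR adjusted p = 0.15), and its POU2F3 ratio of 1.04 (95% counting interval 0.988 to 1.10) did not differ from 1 beyond counting error.

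The regulators E2F1, E2F2, CCNE1 and CCNE2 were below the control in all 3 knockout libraries, as 35.3% of all genes were. E2F1, an activator of the replication genes, had normalized counts of 1733 in the control, 1466 and 1391 with guides 1 and 2, and 1284 in the POU2F3 library. Its log2 ratios were -0.24, -0.32 and -0.43, lowest for POU2F3. E2F2, another activator, had normalized counts of 911 in the control, 709 and 662 with guides 1 and 2, and 702 in the POU2F3 library. The 3 knockout values were close, 22.2% to 27.3% below the control, and edgeR's test did not call E2F2 for COLCA2 (adjusted p = 0.065) or POU2F3 (adjusted p = 0.16). The cyclins E drive entry into S phase, and CCNE1 had log2 ratios of -0.10, -0.090 and -0.25 and CCNE2 of -0.30, -0.21 and -0.21.

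**Figure D3:**
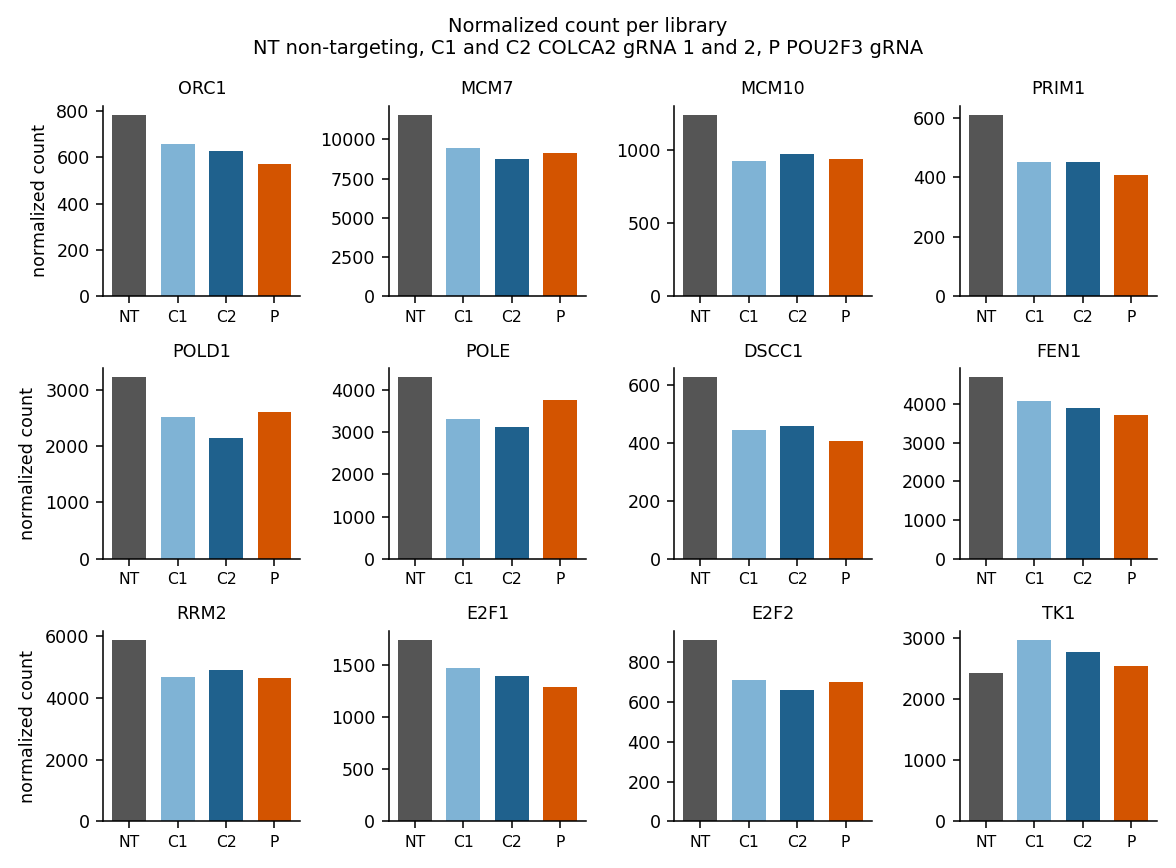
Normalized count (y axis, from 0) in each of the 4 libraries for 12 members, 1 bar per library. The genes were picked for their distance from the control or after their values were seen. That the non-targeting bar is the highest for 11 of them, and the lowest for TK1, largely follows from that choice. Of all 39 members, 31 were below the control in all 3 knockout libraries, against 35.3% of all genes.

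Most of these ratios lay outside counting error. The 95% exact counting interval of the ratio to the control was wholly below 1 for 25 members with guide 1, 27 with guide 2 and 31 in the POU2F3 library, against 31.7%, 31.2% and 31.3% of all genes tested. In all 3 libraries it was below 1 for 23 of 39, against 19.0%, or 21.3% of genes with a mean of at least 100. The guides lay less than 0.32 apart on the log2 scale at 39 of 39 members, whereas 18.5% of all genes, and 10.9% of those with a mean of at least 100, lay at least that far apart. For 32 of 39 the mean COLCA2 ratio was below 0 by more than the SD of the guides, against 38.4% of all genes, and for 3 it was above 0 by more than that, against 38.0%.

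The POU2F3 library was also set against the COLCA2 libraries, without the control. It lay below both guides at 21 members, against 38.9% of all genes tested, and above both at 9, against 35.6%. The 4 licensing genes, the 4 genes of nucleotide supply, FEN1 and LIG1 were among the 21. MCM2, MCM3, MCM5, MCM6, GINS3, POLA1, POLD1, POLE and RFC5 were the 9. The median log2 difference of the members from the mean of the guides was -0.071, against -0.0039 for all genes, and it ran from -0.32 for GINS1 to 0.23 for POLE. None of the 39 was at least 20% lower or 25% higher than the mean of the guides, against 10.2% and 11.9% of all genes. edgeR's quasi-likelihood test called 0 members lower, against 0.234% of all genes, and 0 higher, against 0.107%. At an unadjusted p under 0.05 the same test gave 1 lower (GINS1), against 6.75%, and 1 higher (POLE), against 6.89%. DESeq2 called 0 lower, against 0.622%, and 0 higher, against 0.335%.

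**Figure D4:**
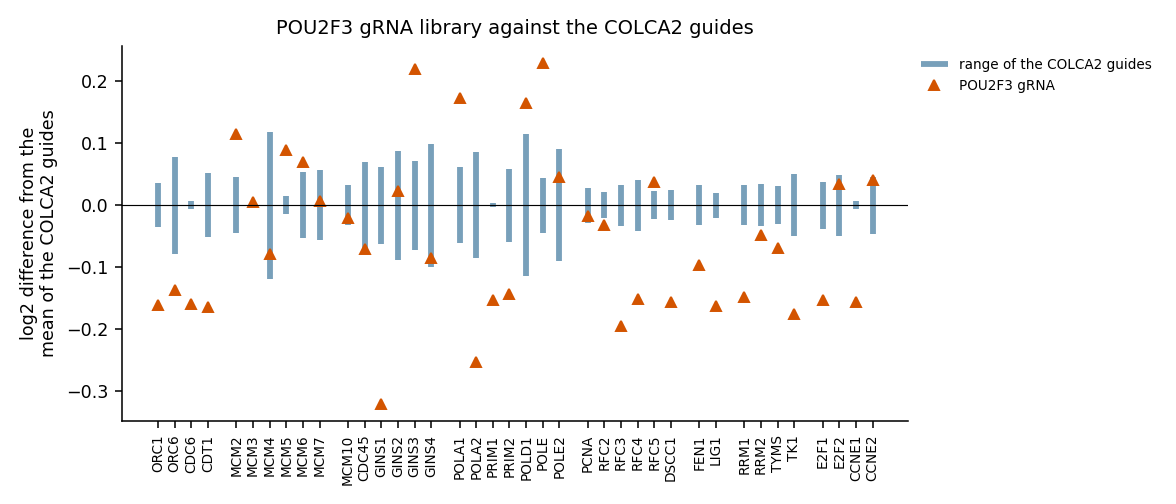
Log2 difference (y axis) of the POU2F3 library (triangles) from the mean of the COLCA2 guides for each member, with bars for the range of the guides. Licensing and nucleotide supply genes sit below the bars, and 4 of the 6 MCM ring genes sit above them. For MCM3 the log2 difference is only 0.0045. Over all genes tested 38.9% lay below both guides and 35.6% above both. The members span -0.32 (GINS1) to 0.23 (POLE).

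Expression levels of different genes are compared per length only. Per kb of the longest coding transcript in GENCODE release 29, ring subunits in the control had 909 normalized counts per kb for MCM6, 1064 for MCM5, 1649 for MCM2, 1804 for MCM4, 2091 for MCM3 and 3748 for MCM7. MCM7 kept the highest level of the ring in all 4 libraries, at 2828 to 3748 per kb. The GINS subunits lay lower in the control, from 185 per kb for GINS3 to 367 for GINS4, and the subunits of polymerase alpha and primase from 253 for POLA1 to 438 for PRIM1. RFC subunits spread more widely, from 443 per kb for RFC5 to 1767 for RFC2. Which transcript was in use was not measured, so these levels are approximate.

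**Figure D5:**
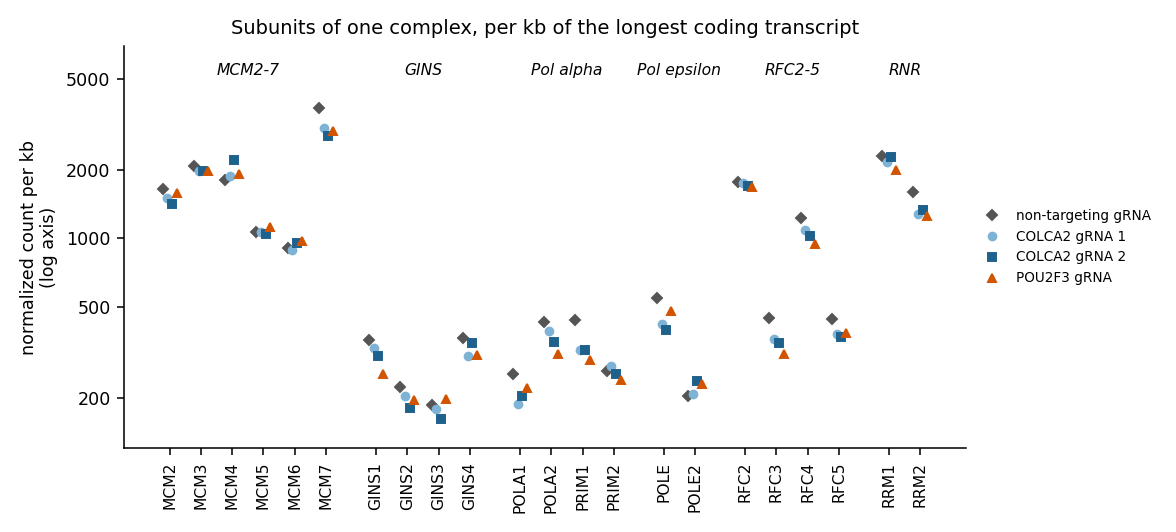
Normalized count per kb of the longest coding transcript (y axis, log axis) for the subunits of 6 complexes in the 4 libraries. MCM7 is the highest of its ring in each library, and GINS subunits lie from 185 to 367 per kb in the control.

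In GENCODE release 29 (GRCh38) 38 of the 39 gene identifiers were found, on 18 chromosomes. The gene DSCC1 (ENSG00000136982) spans 119833976 to 119856010 on the minus strand of chromosome 8. PRIM1 (ENSG00000198056) spans 56731596 to 56752373 on the minus strand of chromosome 12, and MCM10 (ENSG00000065328) 13161554 to 13211104 on the plus strand of chromosome 10. MCM7 (ENSG00000166508) spans 100092728 to 100101940 on the minus strand of chromosome 7. POLD1 (ENSG00000062822) spans 50384204 to 50418016 on the plus strand of chromosome 19, and POLE (ENSG00000177084) 132623753 to 132687365 on the minus strand of chromosome 12. The identifier of E2F2 in the tables, ENSG00000282899, was not matched in that release. Exons of 13 members overlap exons of the opposite strand, most of all TYMS with ENOSF1 (967 bp, 39.2% of its exonic bases) and CCNE2 with INTS8 (1629 bp, 37.0%). Whether reads were counted by strand is not given in the sources used here, so the values of such genes are uncertain. With the same strand included, 16 members have an exon overlap, such as POLA2 with AP000944.2 (2012 bp, 35.1%). Counting by strand would not separate overlaps on the same strand.

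A list of 45 other genes of replication and G1/S control was read beside the members. Their median log2 ratio was -0.19 with guide 1, -0.20 with guide 2 and -0.27 in the POU2F3 library, 36 of 45 were below the control in all 3 libraries, against 35.3% of all genes, and 2 were above, against 34.4%. edgeR's test at an adjusted p under 0.05 called 9 lower for COLCA2, against 7.51% of all genes, and 0 higher, against 11.4%. For POU2F3 it called 3 lower, against 3.98%, and 0 higher, against 8.45%. DESeq2 called 6 lower for COLCA2, against 4.18%, and 3 for POU2F3, against 2.69%. Called by edgeR in both comparisons were CDC25A, CHTF18 and E2F3. DESeq2 differed: for POU2F3 it called MYBL2 and not E2F3, and for COLCA2 it did not call DBF4, E2F7 or E2F8. CDC25A, the phosphatase that activates the kinase of cyclin E, had normalized counts of 1387 in the control, 886 and 739.7 with guides 1 and 2, and 703 in the POU2F3 library (edgeR adjusted p = 0.011 and 0.011). CHTF18, which shares the alternative clamp loader with DSCC1, had 1730.3 in the control, 954 and 826 with guides 1 and 2, and 967 in the POU2F3 library (edgeR adjusted p = 0.0029 and 0.013). E2F3, an E2F activator, had 1980.5 in the control, 1292 and 1299.5 with guides 1 and 2, and 1404 in the POU2F3 library (edgeR adjusted p = 0.0070 and 0.039).

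The others that edgeR called lower for COLCA2 were DBF4, CDC7, TICRR, TOPBP1, E2F7 and E2F8. CDC7 and DBF4 form the kinase that fires origins. In the order control, guide 1, guide 2 and POU2F3 library, DBF4 had normalized counts of 1175, 880.2, 841 and 834, and CDC7 had 1781, 1125, 1222 and 1518. TICRR and TOPBP1, which help CDC45 onto the ring, had 1619, 1097, 943 and 1261 for TICRR and 4034, 2559, 2411 and 3072 for TOPBP1. E2F7 and E2F8, E2F repressors that are themselves E2F targets, had 1772, 1229.6, 1368 and 1410.1 for E2F7 and 771, 508, 393 and 525 for E2F8. These 6 were picked for lying below the control with COLCA2, so the control's place above the guides follows from that choice. None of the 6 was called for POU2F3, where edgeR called 3.98% of all genes lower. POLD4, a small subunit of polymerase delta, was at 290.3, 396, 521 and 403, higher in each knockout library and called in neither comparison.

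A list of 25 mitosis genes, whose transcripts peak later in the cycle, had median log2 ratios of -0.28, -0.24 and -0.23, and 19 were below the control in all 3 libraries (35.3% of all genes) and 2 above (34.4%). edgeR's test called 8 of them lower for COLCA2 (7.51% of all genes) and 4 for POU2F3 (3.98%), and 0 higher in either (11.4% and 8.45%). No test compared that list with the replication genes. Of 17 genes that hold or release the G1 block, 16 passed the minimum, with medians of -0.055, 0.048 and -0.028, and edgeR's test called 2 lower (7.51% of all genes) and 4 higher (11.4%) for COLCA2, and 0 lower (3.98%) and 3 higher (8.45%) for POU2F3. CDKN1A, the p21 inhibitor of the kinase of cyclin E, was above the control in each knockout library. Its normalized counts were 1166 in the control, 4718 and 5184 with guides 1 and 2, and 4083 in the POU2F3 library (edgeR adjusted p = 7.2e-05 and 0.00023). CDKN2B, the p15 inhibitor of CDK4 and CDK6, was above it as well. It was at 215 in the control, 1078 and 1267 with guides 1 and 2, and 999 in the POU2F3 library (edgeR adjusted p = 0.00017 and 0.00045). RB1, the target of those kinases, named after its values were seen, was at 160.4, 124, 182 and 149 in the order used above. The other inhibitors on the list, also named after their values were seen, went both ways. CDKN2A was above the control in all 3 knockout libraries, and CDKN2C and CDKN2D were below it in all 3. CDKN1B lay on both sides of it, and CDKN1C was at 1639, 1212, 1241 and 1867 in the same order. CCND1, cyclin D1, was at 719, 1461, 1474 and 833.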

How the data were processed

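The 4 libraries were COLCA2 gRNA (2 guides), POU2F3 gRNA (1) and non-targeting gRNA (1). TRIzol-extracted, DNase-treated RNA was selected on poly(A) beads for a NEBNext Ultra II library, per the labels' protocols. Salmon, DESeq2 and hg38 are named in the submitters' processing notes, with no version or role. Per the file headers, the authors deposited a normalized count for each gene, used here as a linear signal. In each library 100% of values were whole multiples of 1 step (tolerance 0.01 read), so whole reads were recovered, 21587741 to 29632382 per library. Estimated counts could have been rounded first.

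Rows of the same symbol were summed, and 14940 genes with a mean of at least 20 were kept. Log2 ratios to the control used a pseudocount of 1. Genes at least 20% lower or 25% higher were counted with no test, since 2 groups had 1 library, and COLCA2 needed both guides to pass. As alternatives, edgeR 4.0.16 (quasi-likelihood, TMM) and DESeq2 1.42.0 (Wald) were run on the recovered reads with 3 groups and 1 residual degree of freedom, with Benjamini-Hochberg adjustment at 0.05. edgeR called 1122 genes lower and 1709 higher for COLCA2, and 595 and 1263 for POU2F3. The scripts were tested on simulated data. Nothing says that the guides came from separate cultures, so p-values measure only the spread between these libraries, which may be technical. Counting intervals are exact (Clopper-Pearson, 95%) and cover counting error only.

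The members and lists were chosen with earlier results of these data known, and their genes come from general knowledge of replication and the cell cycle. Every member is named. Values in all libraries are given for members past the threshold in all 3 knockout libraries, for the member farthest from the control in each role group, for genes of the other replication list past the threshold in all 3 and for G1 genes 2-fold from the control in all 3. GINS1, POLD1, POLE, PCNA, TK1, E2F1, CDC7, RB1, CDKN1C and CCND1 were added after their values were seen. Python 3.11.15, pandas 2.3.3 and matplotlib 3.10.9 were used.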

Additional observations from a re-analysis of the deposited data

How the results depend on the processing

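The medians of the members kept their sign under the alternatives run: 3 scalings, pseudocounts of 0.1 and 10, a minimum of 100, the highest row per symbol, the mean over members and each guide left out. No scaling moved the median of all genes by more than 0.074 on the log2 scale. Scaling to equal totals gave a COLCA2 median of -0.28, 11 members at least 20% lower with both guides (18.5% of all genes) and 1 member above the control in all 3 libraries (29.1%), and it added CDT1 and PRIM2 to those below. Leaving out a guide gave COLCA2 medians of -0.24 (without guide 1) and -0.14 (without guide 2). With the remaining guide 10 and 8 members were lower (21.1% and 20.8% of all genes). The POU2F3 minus COLCA2 median was then -0.059 and -0.066, with 33 and 31 members below the control in the remaining libraries (40.0% and 39.1% of all genes) and 4 above in both cases (39.4% and 38.0%). At 1.5-fold 2 members were lower with POU2F3 (7.69% of all genes) and 0 with both guides (6.03%), and at 2-fold 0 (3.05%) and 0 (2.02%). edgeR's quasi-likelihood test called 0 members lower for POU2F3 (3.98% of all genes) and 3 for COLCA2 (7.51%). DESeq2 called 0 (2.69%) and 3 (4.18%), while edgeR gave 15 (11.0%) and 12 (14.8%) at an unadjusted p under 0.05. With a guide left out no residual degree of freedom remains, so these tests could not be run. No paired analysis was possible because only COLCA2 has a library numbered 2. Each member had at least 311 reads in each library, and what limits the calls was not tested.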
